A study of Mus musculus with 78 samples.

Results

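Nascent transcription was examined in mouse embryonic stem cells 24 h after the start of ZFP143 depletion. The comparison is of 2 TT-seq libraries from cells treated for 24 h with dTAG-V1 with 2 libraries from cells treated with DMSO, the solvent. A gene was included when over 10 reads were counted in at least 2 of these 4 libraries, and 17977 of the 55401 genes in the count table met this rule. The cells were E14TG2a embryonic stem cells (129/Ola background) in which the endogenous Zfp143 gene had been joined to a cassette of FKBP12F36V, 2 HA tags, P2A and eGFP. DMSO and 24 h cells both carried this knock-in and grew in serum-free medium with LIF, PD0325901 and CHIR99021. The dTAG-V1 dose was 500 nM. How long the DMSO libraries had been treated is not given in their labels. No TT-seq library of untagged cells was analysed here, so an effect of dTAG-V1 that does not pass through ZFP143 cannot be told apart from ZFP143 loss. The knock-in cells were grown from sorted single cells, and how many clones went into these libraries is not stated.

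ZFP143 is the mouse counterpart of human ZNF143, a zinc finger protein that binds promoters through a long DNA element known as the SBS, and it is known as an activator of housekeeping genes, among them many nuclear genes for mitochondrial proteins. dTAG-V1 joins the FKBP12F36V tag to an E3 ubiquitin ligase, and the tagged protein is then degraded by the proteasome. TT-seq measures RNA made in a short pulse. Cells received 2 mM of the uridine analogue 4-thiouridine for 10 min, and the labelled RNA was pulled out of fragmented total RNA and sequenced. Because introns were counted together with exons, the reads of a gene follow its transcription more closely than the stock of finished mRNA.

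The 4 libraries held between 9721568 and 13255099 reads counted on genes, and within each group the library of replicate 1 was the shallower. Over all genes the coefficient of variation between replicates, as fitted over 8 TT-seq libraries (2 per group at 0, 2, 6 and 24 h), was 17.3%. The replicates are described as biological, and the p-values below measure only the spread between these libraries. CT010467.1 took the most reads of any gene, with 39976 and 32334 CPM in DMSO and 27129 and 23708 CPM at 24 h (log2 change -0.51 ± 0.19, adjusted p = 0.163, edgeR). The cells carried the markers of naive embryonic stem cells. All 8 markers used (Pou5f1, Sox2, Nanog, Klf4, Esrrb, Zfp42, Tfcp2l1 and Klf2) were transcribed in every library, and their summed level was 3582 and 3795 CPM (read counts scaled to a common library total) in DMSO and 3474 and 3683 CPM at 24 h. Of genes that mark other cells, 13 of 19 primitive endoderm genes, 9 of 15 trophoblast genes, 6 of 14 neural genes, 4 of 14 mesoderm genes and 2 of 10 fibroblast genes passed the count rule. No 2-cell-like gene of 15 did. In such bulk libraries, fewer cells of a type and less RNA per cell cannot be told apart. CPM values in this text are scaled by the TMM method. They rise with gene length, so they compare libraries for a gene and not genes with each other.

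The DNA under the ZFP143 peaks of the most decreased genes is shown here. Whether these sequences bear on the decrease was not tested. The 4 genes with the greatest decrease at 24 h among well counted genes were Mpi, Zfp111, Usp40 and Enox2, and each had a ZFP143 ChIP-seq peak at an annotated transcript start. Below is the part of each peak near its summit that lies outside annotated exons, from the mouse genome of RefSeq (GRCm38.p6), written 5′ to 3′ on the strand of the gene. Capitals mark matches on either strand to ACTACANNTCCC or to CCCAGNATG, letters that resemble parts of the SBS and were chosen with these sequences in view. The windows are chr9:57552764-57552923 (minus strand), chr7:24208150-24208302 (minus strand), chr1:88008552-88008748 (minus strand) and chrX:49288291-49288590 (minus strand).
Mpi: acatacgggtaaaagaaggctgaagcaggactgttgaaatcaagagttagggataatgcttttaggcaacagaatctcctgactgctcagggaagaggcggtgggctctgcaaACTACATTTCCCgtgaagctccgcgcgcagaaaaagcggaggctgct
Zfp111: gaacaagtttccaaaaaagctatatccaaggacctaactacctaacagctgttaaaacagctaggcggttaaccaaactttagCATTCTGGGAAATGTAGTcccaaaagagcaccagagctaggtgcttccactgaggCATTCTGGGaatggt
Usp40: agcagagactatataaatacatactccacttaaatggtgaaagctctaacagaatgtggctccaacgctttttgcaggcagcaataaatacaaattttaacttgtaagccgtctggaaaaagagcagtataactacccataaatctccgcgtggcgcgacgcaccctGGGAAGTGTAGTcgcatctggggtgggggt
Enox2: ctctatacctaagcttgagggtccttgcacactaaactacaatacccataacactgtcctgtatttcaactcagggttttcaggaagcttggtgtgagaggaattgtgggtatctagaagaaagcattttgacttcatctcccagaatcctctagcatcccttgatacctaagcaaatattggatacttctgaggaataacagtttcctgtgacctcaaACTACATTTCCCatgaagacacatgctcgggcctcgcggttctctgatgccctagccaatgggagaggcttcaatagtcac
Each window held ACTACANNTCCC or its reverse complement 1 time. In Zfp111 the match ran into a CCCAGNATG match on the same strand with shared bases, and a further CCCAGNATG match lay downstream. The summits lay 11, 82, 65 and 182 bases before the nearest annotated transcript start, in the order in which the genes are named.

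Of the 17977 genes, 806 were called lower and 388 were called higher at 24 h, that is 4.48% and 2.16% of the genes tested. A call needed an adjusted p under 0.05 (edgeR quasi-likelihood test with Benjamini-Hochberg adjustment) and an absolute log2 change above 0.5. The median log2 change was -1.13 among called lower genes and 1.26 among called higher genes, and 0.00 over all genes (0.00494 before rounding). The decreases ran further than the increases. Of the called lower genes 171 changed by over 4-fold and 24 by over 16-fold, against 51 and no gene on the higher side. Among called lower genes, Gm29776 and Magea10 had no read in either 24 h library. The most negative fitted change of the others was -6.39, for Setmar, a histone methyltransferase gene. In all called genes both 24 h libraries lay outside the range of the 2 DMSO libraries, which was true in the fitted direction of 48.3% of all genes tested. The counts moved with single libraries: leaving out either DMSO library or either 24 h library in turn gave 353 to 522 genes called lower and 112 to 195 called higher. With the replicate number as a block 1279 were lower and 1049 higher. Of 80 called genes named in this text by a fixed rule, 46 kept the call in all 4 of these fits.

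**Figure D1:**
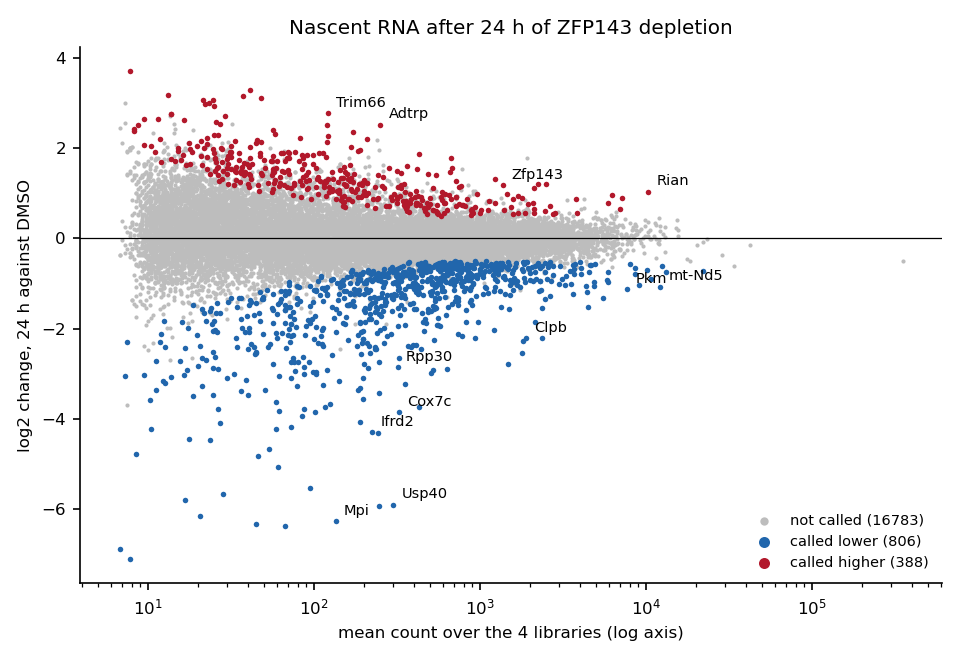
Change in nascent RNA for each of the 17977 genes: the x axis gives the mean count over the 4 libraries (log axis) and the y axis the log2 change of the 2 libraries at 24 h against the 2 DMSO libraries. The 806 genes called lower (blue) reach below -6, while the 388 called higher (red) end below 4, and gene names mark genes described in the text.

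At the edge of the rule, 1063 members had over 10 reads in exactly 2 of the 4 libraries, with a median mean count of 11.25, and 1231 genes with over 10 reads in 1 library stayed out, with a median mean count of 8. Of the 1063, 154 passed through the DMSO libraries alone and 54 of these were called lower. A further 331 passed through the 24 h libraries alone and 44 of these were called higher. A gene that enters in this way already differs between the groups, so these calls are not separate evidence of a change.

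Transcription of Zfp143 itself did not fall. The gene (chromosome 7, 110061217 to 110095394, GRCm38) gave 71.05 and 73.8 CPM in the DMSO libraries and 169 and 160.3 CPM at 24 h. All treated libraries lay above both DMSO libraries, with 164 and 164 CPM at 2 h and 162 and 162 CPM at 6 h. The log2 change at 24 h was 1.18 ± 0.11 (SE, adjusted p = 0.000837, edgeR). It was 1.18 at 2 h and 1.16 at 6 h against the same DMSO libraries, and the direct difference between 24 h and 2 h was 0.00 (adjusted p = 0.994). The degron acts on the protein, which TT-seq does not see, so this gene is no check of the depletion. No ZFP143 peak was assigned to its start. Of 7 other genes of its family and of promoter partners (Zfp523, Thap11, Hcfc1, Six5, Yy1, Ctcf and Rad21), none was called by edgeR or by DESeq2, none had an unadjusted p under 0.05, and their log2 changes lay between -0.38 for Thap11 and 0.14 for Rad21. Thap11 and Hcfc1 encode proteins that act with ZNF143 at promoters, and Zfp523 encodes its closest relative.

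The greatest decreases among well counted genes, those with a mean count of at least 100, spanned sugar metabolism, RNA and protein handling, the nuclear lamina and the mitochondrion. Mpi encodes mannose phosphate isomerase, which links glycolysis to the mannose used for glycosylation. It gave 27.2 and 20.4 CPM in DMSO and 0.392 and 0.225 CPM at 24 h, a log2 change of -6.27 ± 0.42 (SE, adjusted p = 0.000264, edgeR). Zfp111, a KRAB zinc finger gene, gave 45.5 and 39.9 CPM in DMSO and 0.883 and 0.525 CPM at 24 h (log2 change -5.94 ± 0.30, adjusted p = 8.55e-05). In both genes the 24 h libraries lay under 1 CPM and far below the DMSO range. With 4 and 3 reads (Mpi) and 9 and 7 reads (Zfp111) at 24 h, both passed the count rule through the DMSO libraries alone, where they had 264 reads or more. Usp40, a ubiquitin protease gene, gave 47.2 and 54.9 CPM in DMSO and 0.588 and 1.05 CPM at 24 h (log2 change -5.91 ± 0.30, adjusted p = 8.55e-05). Enox2, which encodes a cell surface oxidase, gave 37.2 and 43 CPM in DMSO and 2.84 and 1.27 CPM at 24 h (log2 change -4.32 ± 0.40, adjusted p = 0.000993). All 4 genes carry the sequences shown above.

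The other genes among the 12 greatest decreases of well counted genes fell steeply too. Ifrd2, whose protein binds idle ribosomes, gave 35.8 and 38.2 CPM in DMSO and 1.77 and 1.95 CPM at 24 h (log2 change -4.30 ± 0.21, adjusted p = 8.55e-05, edgeR). Lmnb2 encodes lamin B2 of the nuclear lamina and gave 79.6 and 61.9 CPM in DMSO and 6.67 and 4.05 CPM at 24 h (log2 change -3.74 ± 0.30, adjusted p = 0.000579). The mitochondrion was represented by Cox7c, a subunit of cytochrome c oxidase, Mrps25, a protein of the small mitochondrial ribosome subunit, and Bckdk, the kinase that restrains breakdown of branched-chain amino acids. Cox7c gave 54.4 and 51.8 CPM in DMSO and 2.94 and 4.35 CPM at 24 h (log2 change -3.85 ± 0.31). Mrps25 gave 27.1 and 35.4 CPM in DMSO and 2.55 and 2.7 CPM at 24 h (log2 change -3.57 ± 0.26). Bckdk gave 24.1 and 17 CPM in DMSO and 2.06 and 1.2 CPM at 24 h (log2 change -3.67 ± 0.35). That their groups do not overlap was a condition of being named and is no finding. The list also held Rbm41, an RNA-binding protein gene (-4.06 ± 0.36), the pseudogene Zfp862-ps (-3.86 ± 0.36) and Samd12 (-3.73 ± 0.38), each value being a log2 change with its SE. The adjusted p of these 6 genes lay between 0.000371 for Mrps25 and 0.00130 for Samd12. All 12 genes had a ZFP143 peak at a transcript start, with an enrichment over input between 21.5-fold for Enox2 and 196-fold for Mrps25.

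The greatest increases among well counted genes, those with a mean count of at least 100, were smaller. Trim66, whose protein reads histone marks, led with 2.89 and 2.42 CPM in DMSO and 18.8 and 17.3 CPM at 24 h (log2 change 2.77 ± 0.26, adjusted p = 0.000995, edgeR). Meis1, a homeobox transcription factor gene, gave 6.29 and 4.99 CPM in DMSO and 23.8 and 22.3 CPM at 24 h (log2 change 2.04 ± 0.21, adjusted p = 0.00146). At 2 h the levels were 2.66 and 3.36 CPM for Trim66 and 6.37 and 7.87 CPM for Meis1, far below those at 24 h. Atf5, a transcription factor gene of the stress response, gave 16.8 and 14.8 CPM in DMSO and 57.4 and 58.2 CPM at 24 h (log2 change 1.87 ± 0.27, adjusted p = 0.00558). Ttc41 behaved otherwise in time, with 7.63 and 5.21 CPM in DMSO, 26.9 and 25.8 CPM at 2 h and 27.6 and 30.9 CPM at 24 h (log2 change 2.199 ± 0.202, adjusted p = 0.000967). Ttc41 shares reads with Gm49358, which overlaps it on the same strand.

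The other 8 increases were spread over several kinds of gene. Secreted and matrix proteins were Igfbp7, which binds insulin-like growth factors (2.35 ± 0.35), Fbn1, the fibrillin of microfibrils (1.90 ± 0.39), and the protease Adamts17 (1.90 ± 0.29). The transporter Slc7a11, which takes up cystine, changed by 2.28 ± 0.49, Kctd16, a partner of GABA receptors, by 1.96 ± 0.22, the glycosyltransferase B4galnt2 by 1.93 ± 0.29, Dock10, an exchange factor of small GTPases, by 1.80 ± 0.35 and Adtrp, a lipid hydrolase gene, by 2.52 ± 0.52. Each value is a log2 change with its SE, and the adjusted p lay between 0.00180 for Kctd16 and 0.0310 for Slc7a11. In Adtrp the 24 h libraries were far apart, at 56.3 and 21.1 CPM, against 10 and 3.703 CPM in DMSO, and the log2 change was 1.67 without 24 h replicate 1. The calls of Adtrp, Slc7a11, Fbn1, Adamts17 and Dock10 were lost without at least 1 of the 4 libraries, the adjusted p then reaching 0.124 for Slc7a11 without DMSO replicate 1. Ttc41 and Adtrp were the only 2 of the 12 increases with a ZFP143 peak.

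**Figure D2:**
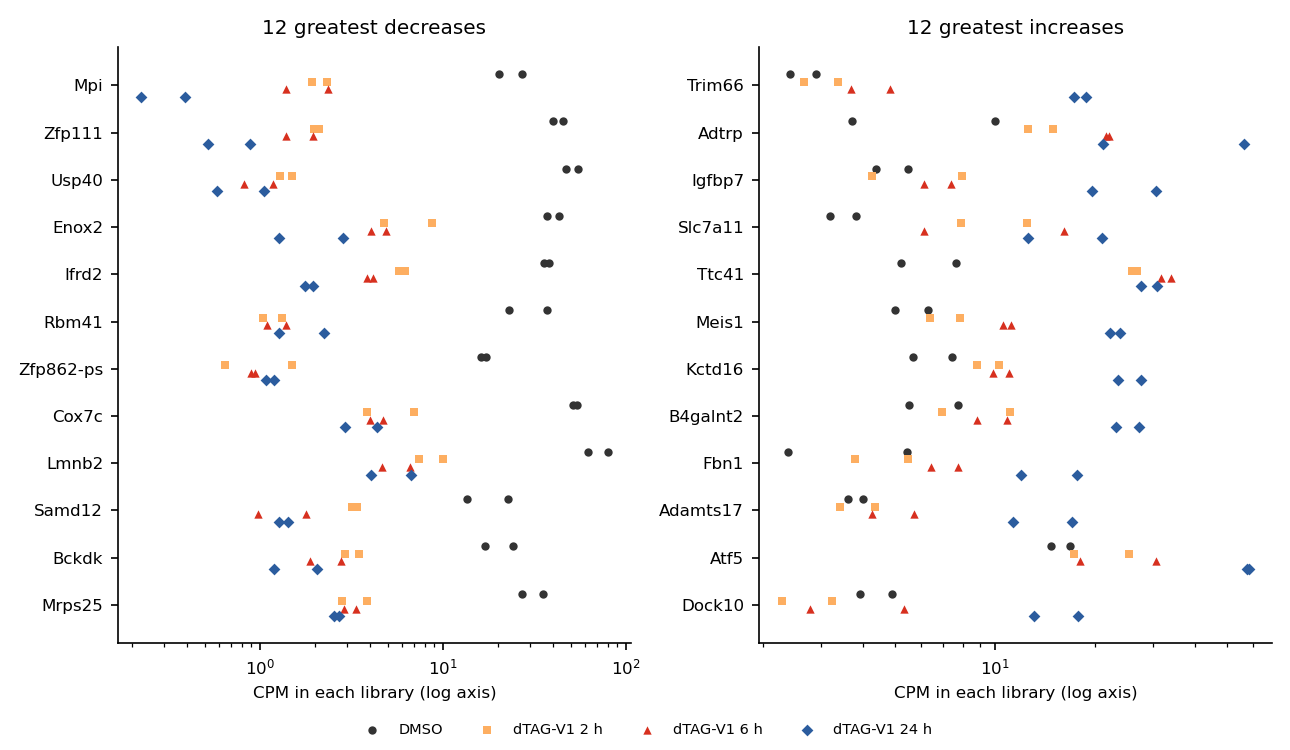
CPM in each library (log x axis) for the 12 well counted genes with the greatest decrease (left) and the 12 with the greatest increase (right) at 24 h. There are 2 libraries per group, with DMSO as black circles, 2 h as orange squares, 6 h as red triangles and 24 h as blue diamonds. In the left panel all treated libraries lie left of DMSO from 2 h on, and in the right panel Trim66, Meis1 and Atf5 reach their level at 24 h while Ttc41 is already there at 2 h.

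Of 9 genes taken from the examples of the study, 8 were called lower. Rpp30, which encodes a protein of RNase P, gave 42.5 and 53.4 CPM in DMSO and 6.28 and 6.899 CPM at 24 h (log2 change -2.86 ± 0.20, adjusted p = 0.000294, edgeR). Pomgnt2, a glycosyltransferase gene of dystroglycan, gave 7.32 and 11.5 CPM in DMSO and 0.0981 and 0.825 CPM at 24 h (log2 change -4.22 ± 0.70, adjusted p = 0.0106), and the change was -6.45 without 24 h replicate 2. Mtrf1, a mitochondrial release factor gene, changed by -2.24 ± 0.26, the complex IV assembly gene Coa3 by -1.36 ± 0.31 and Cyc1, cytochrome c1, by -1.09 ± 0.20 on the log2 scale. Changes were smaller for Ndufab1, the mitochondrial acyl carrier protein (-0.79 ± 0.15), Dnm1l, the GTPase of mitochondrial fission (-0.62 ± 0.12), and Tfam, which packages and transcribes mtDNA (-0.53 ± 0.13). Tfam gave 46.9 and 47.8 CPM in DMSO and 34.8 and 31.05 CPM at 24 h and passed narrowly (adjusted p = 0.0475), and its p was 0.0900 by DESeq2. Tufm, a mitochondrial elongation factor gene, gave 19.8 and 17.5 CPM in DMSO and 11.7 and 12.1 CPM at 24 h and missed the threshold (log2 change -0.64 ± 0.18, adjusted p = 0.0758), which it passed with the replicate block (0.0316). Without at least 1 of the 4 libraries the calls of Tfam, Coa3, Ndufab1, Dnm1l and Cyc1 were lost, with an adjusted p of up to 0.212 for Tfam without 24 h replicate 2. All of these examples had a ZFP143 peak, and as the study picked them from these samples they are no independent evidence of direction.

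Most of the called lower genes had ZFP143 at the promoter. A gene was taken as bound when a peak from the authors' list of 3189 ZFP143 peaks lay in the window from 2000 bp before to 1000 bp after a transcript start, with its centre within 2000 bp. Of the 806 called lower genes 548 were bound, or 68.0%, against 2325 of all 17977 genes, or 12.9%, and 31 of the 388 called higher genes, or 7.99%. Among the 2325 bound genes the share called lower rose with the enrichment of the peak over input. Split into 4 groups of near equal size by enrichment, 67 of the 585 genes with the weakest peaks (4.35- to 18.4-fold), or 11.5%, were called lower. The shares were 19.2% and 27.2% in the next groups and 36.6% (212 of 580) where peaks were 59.4- to 345-fold. The median log2 change ran from -0.20 to -0.30, -0.37 and -0.47 over these groups, against 0.04 in the 15652 genes without a peak. At 2 h, against the same DMSO libraries, the medians were -0.15, -0.26, -0.35 and -0.40. Most bound genes were not called: 1746 of 2325 passed in neither direction, and their median log2 change was -0.20. Called lower genes with a peak had a median change of -1.25 and those without a peak of -0.90.

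**Figure D3:**
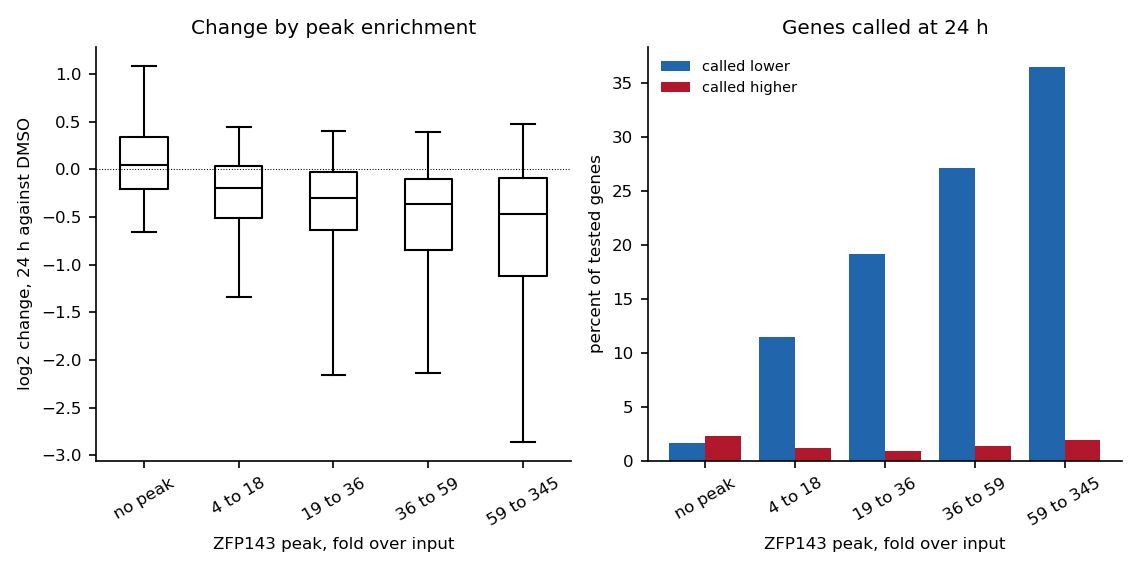
Left, log2 change at 24 h for genes without a ZFP143 peak and for 4 groups of bound genes by the fold enrichment of the peak over input (x axis), with boxes for quartiles, a line at the median and whiskers from the 5th to the 95th percentile; right, the percent of genes in each class that were called lower (blue) or higher (red). The share called lower climbs from 1.65% without a peak to 36.6% in the strongest group, and the share called higher stays between 0.864% and 2.28%.

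The letters marked in the sequences were also counted in all promoters of RefSeq, from 250 bases before to 50 after the start. Of the tested genes 11611 could be matched to a promoter by symbol, and 511 of these (4.401%) held ACTACANNTCCC on either strand in at least 1 promoter. The share was 32.8% (181 of 551) in called lower genes, 2.11% (6 of 285) in called higher genes and 3.01% in genes not called. Within called lower genes it was 41.6% (179 of 430) with a ZFP143 peak and 1.65% (2 of 121) without. Of bound genes that were not called, 23.0% (310 of 1349) held it, and of 20 bound genes called higher 6 did. In the 200 bases around peak summits it stood in 45.9% (240 of 523) of peaks at called lower genes, 45.2% (14 of 31) at called higher genes, 33.1% (480 of 1451) at genes not called and 29.8% (951 of 3189) of all peaks. CCCAGNATG, which can share bases with ACTACANNTCCC, was found in 2.69% of matched genes and in 10.5% (58 of 551) of called lower genes. Over all 27025 genes with a RefSeq promoter the shares were 2.08% for ACTACANNTCCC and 2.33% for CCCAGNATG.

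A smaller set of bound genes was called higher, 31 of 2325 or 1.33%. The share was 2.16% of all genes and 2.28% of genes without a peak. Besides Ttc41, the greatest increases among well counted bound genes after Adtrp were Trmt10a, a tRNA methyltransferase gene, and Naa38, a subunit gene of a protein acetyltransferase (log2 change 1.36 ± 0.33). Trmt10a gave 27.7 and 30.9 CPM in DMSO, 74.6 and 87.3 CPM at 2 h and 80.02 and 92.5 CPM at 24 h (log2 change 1.56 ± 0.15, adjusted p = 0.00124, edgeR). Rabl3, a small GTPase gene, gave 40.1 and 39.9 CPM in DMSO, 95.2 and 92.9 CPM at 2 h and 87.5 and 88.8 CPM at 24 h (log2 change 1.14 ± 0.11, adjusted p = 0.000995), with reads shared with Gm49569. In both genes the libraries at 2 h already lay at the level of 24 h. The direct differences between 24 h and 2 h were 0.09 and -0.09, with adjusted p of 0.809 and 0.712. These genes were picked after their values were seen.

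Called lower genes without a peak numbered 258. They are without a peak by the assignment above and the peak list used here, which does not show that ZFP143 is absent from them. The most decreased well counted nuclear gene among them was Cpox, which encodes coproporphyrinogen oxidase of heme synthesis. It gave 15.4 and 16.2 CPM in DMSO, 2.02 and 2.22 CPM at 2 h and 1.37 and 2.47 CPM at 24 h (log2 change -3.01 ± 0.39, adjusted p = 0.00363, edgeR). The study took the Cpox promoter as a viewpoint for contact profiles (4C-seq), having selected for these promoters that it calls bound by ZFP143. The next after Cpox were small nucleolar RNAs inside the introns of host genes on the same strand, whose reads are counted for the host too. Snord99, Snora61, Snora16a and Snora44 lie in Snhg12, and Snora73a and Snora73b in Snhg3 and Rcc1. Their log2 changes lay between -2.46 for Snord99 and -1.78 for Snora73b. The 3 hosts were called lower and bound, with log2 changes of -2.21 ± 0.18 for Snhg12, -1.53 ± 0.13 for Snhg3 and -1.33 ± 0.12 for Rcc1. These genes too were picked after their values were seen. Where 2 tested genes start within 1000 bp of each other on opposite strands, 1804 such pairs were found. In 21 pairs both genes were called lower, in 151 only 1 of the pair, and in 6 pairs a called lower gene faced a called higher gene. An example of the last is Mrpl54, of the mitochondrial ribosome, with a log2 change of -2.14, beside Apba3, an adaptor protein gene, with 1.02. Among the 376 pairs with a peak at both starts the same counts were 17, 95 and 5. How many such pairs would arise from the 4.48% of genes called lower was not worked out.

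The nuclear genes of the mitochondrion were lower in part. Over 12 lists of such genes, 371 were tested, 36 were called lower and 2 called higher, and the median log2 change was -0.13. The background over all tested genes was 4.48% called lower and a median of 0.00. Of the 36 called lower genes 35 were bound. With DESeq2 34 were called lower and 2 higher, against 818 and 444 of all 17977 genes. At an unadjusted p under 0.05 (edgeR), 73 were lower and 12 higher, against 2134 and 1883 of all 17977 genes. The lists, chosen with earlier results of these data known, differed in how many members moved.

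In the respiratory chain, 8 of 44 tested subunit genes of complexes II to V were called lower (18.2%, median log2 change -0.25, or -0.13 without 24 h replicate 1), and 3 of 37 of complex I (8.11%, median -0.12, or -0.048 without DMSO replicate 2). Uqcr10, a subunit of complex III, gave 41.6 and 37.9 CPM in DMSO and 4.12 and 3.3 CPM at 24 h (log2 change -3.42 ± 0.20, adjusted p = 0.000193, edgeR). Cox7c was given above. Ndufa3 of complex I gave 11.8 and 12.2 CPM in DMSO and 5.39 and 5.47 CPM at 24 h (log2 change -1.14 ± 0.20, adjusted p = 0.0140), a call that was lost without DMSO replicate 2 or either 24 h library (adjusted p up to 0.0723). Of 46 assembly factor genes only Coa3 was called, and not by DESeq2 (adjusted p = 0.123). The other called subunit genes were Atp5d, Atp5j2, Atp5mpl, Atp5o, Uqcrb, Cyc1, Ndufab1 and Ndufa7, the first 4 of ATP synthase.

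Genes for mitochondrial gene expression were lower in single cases. Of 78 mitochondrial ribosomal protein genes 7 were called lower (8.97%, median -0.18), namely Mrps25, Mrpl10, Mrps26, Mrpl54, Mrpl42, Mrpl34 and Mrpl37. Mrpl10 gave 31.7 and 34.8 CPM in DMSO and 12.9 and 15.1 CPM at 24 h (log2 change -1.24 ± 0.17, adjusted p = 0.00496, edgeR). Of 36 genes for transcription, copying and RNA maturation of mtDNA 3 were called lower (8.33%, against 4.48% of all genes). These were Tfam and the RNA-binding genes Fastk and Fastkd1. Fastk gave 30.8 and 22.6 CPM in DMSO and 6.37 and 5.62 CPM at 24 h (log2 change -2.15 ± 0.22, adjusted p = 0.00141). Fastkd1 gave 32.9 and 35.1 CPM in DMSO and 15.1 and 9.52 CPM at 24 h (log2 change -1.47 ± 0.26), and this call was lost without either DMSO library in turn or without 24 h replicate 2 (adjusted p up to 0.0708). Of 20 mitochondrial aminoacyl-tRNA enzyme genes, Gatb (-1.05 ± 0.15) and Yars2 (-0.998 ± 0.221) were lower and Nars2 (0.63 ± 0.14) higher. These are 10.0% and 5.0%, against 4.48% and 2.16% of all genes. The call of Nars2 was lost without any 1 of the 4 libraries (adjusted p up to 0.129), and that of Yars2 without either 24 h library or DMSO replicate 2 (adjusted p up to 0.146). Of 16 translation factor genes, Mtrf1 was called lower (6.25%, near the 4.48% of all genes).

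Called genes were also found in lists of import, quality control and metabolism of the mitochondrion. Of 32 import genes Timm13, Tomm40 and Timm21 were called lower (9.38%, against 4.48% of all genes) and Hspa9 higher (3.1%, against 2.16%). Timm13, a chaperone of the intermembrane space, gave 14.8 and 10.9 CPM in DMSO and 2.06 and 0.675 CPM at 24 h (log2 change -3.27 ± 0.43, adjusted p = 0.00394, edgeR). Tomm40, the pore of the outer membrane, gave 195 and 209 CPM in DMSO and 85.1 and 105 CPM at 24 h (log2 change -1.09 ± 0.14, adjusted p = 0.00340). Hspa9, the Hsp70 of the matrix, was higher, with 363 and 389 CPM in DMSO and 693 and 599.7 CPM at 24 h (log2 change 0.78 ± 0.13, adjusted p = 0.00915), and this call was lost without 24 h replicate 1 (adjusted p = 0.0619). Of 15 chaperone and protease genes 5 were called lower: Clpb, Htra2, Clpp, Phb2 and Phb. Clpb, a disaggregase that shares reads with Gm45380, gave 254 and 283 CPM in DMSO and 60.2 and 55.6 CPM at 24 h (log2 change -2.21 ± 0.12, adjusted p = 0.000103). Htra2, a protease of the intermembrane space, gave 6.08 and 6.95 CPM in DMSO and 0.981 and 1.2 CPM at 24 h (log2 change -2.56 ± 0.33, adjusted p = 0.00362). Of 13 regulators of biogenesis Pprc1, a coactivator gene related to PGC-1, was called lower (-1.85 ± 0.12). Of 20 citric acid cycle genes Fh1, fumarase, was called lower (-0.87 ± 0.15), and of 14 fission and fusion genes Dnm1l. These are 7.69%, 5.0% and 7.14%, near the 4.48% of all genes. The call of Fh1 was lost without 24 h replicate 1 or DMSO replicate 2 (adjusted p up to 0.0858).

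**Figure D4:**
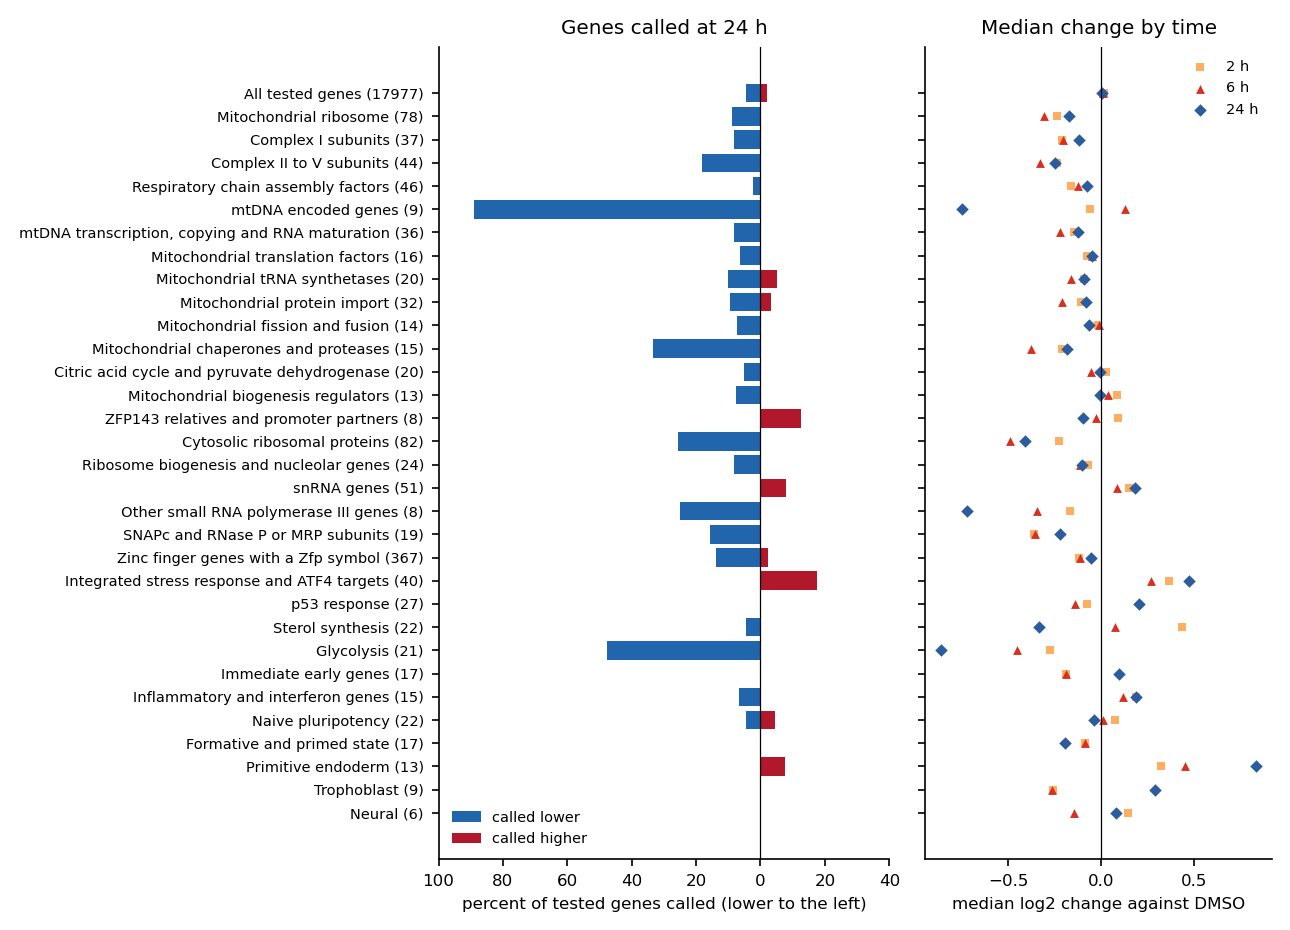
Gene lists with at least 5 tested members, with the number tested in brackets: left, the percent of tested members called lower (blue, to the left) or higher (red, to the right) at 24 h; right, the median log2 change at 2 h (orange), 6 h (red) and 24 h (blue) against the same 2 DMSO libraries. The mtDNA genes have 8 of 9 members called lower and a median of -0.75 at 24 h against -0.06 at 2 h, and glycolysis has 10 of 21 called lower.

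Transcripts of the mitochondrial genome itself were lower at 24 h. Of 9 tested genes of the list (7 mRNAs and both rRNAs) 8 were called lower, DESeq2 called all 9, and none has a ZFP143 peak. Over all 26 tested mtDNA genes, tRNA genes included, 10 were called lower, with a median log2 change of -0.52. The 5 greatest losses of CPM among called genes were all of the list of 9, a ranking that also follows level and gene length. mt-Nd5, a subunit of complex I, gave 1419.9 and 1421 CPM in DMSO and 632 and 719 CPM at 24 h (log2 change -1.07 ± 0.14, adjusted p = 0.00386, edgeR). mt-Cytb, cytochrome b, gave 1058 and 1053 CPM in DMSO and 470.2 and 553 CPM at 24 h (log2 change -1.04 ± 0.14, adjusted p = 0.00463). mt-Co1 changed by -0.91 ± 0.13, mt-Nd1 by -0.75 ± 0.14 and mt-Rnr1, the small rRNA, by -0.72 ± 0.14. The large rRNA mt-Rnr2 gave 3964 and 3159.9 CPM in DMSO and 2443 and 2236 CPM at 24 h and missed the threshold (log2 change -0.61 ± 0.16, adjusted p = 0.0608). The calls of mt-Nd1 and mt-Rnr1 were lost without DMSO replicate 1 or either 24 h library (adjusted p up to 0.123). At 2 h the libraries lay near DMSO, with 1201 and 1439 CPM for mt-Nd5 and 903 and 1079 CPM for mt-Cytb. The direct difference between 24 h and 2 h was -0.97 for mt-Nd5 and -0.95 for mt-Cytb, with adjusted p of 0.0523 and 0.0535 without the replicate block and 0.0075 and 0.0073 with it (edgeR). Of mtDNA genes outside the list, the tRNA genes mt-Tt (-1.19, adjusted p = 0.0430) and mt-Tl1 (-0.82, adjusted p = 0.0474) passed this test without the block. Counted over all mtDNA genes, the share of reads was 1.47% and 1.27% in DMSO, between 1.27% and 1.54% at 2 and 6 h, and 0.840% and 0.849% at 24 h.

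Of 21 tested glycolysis genes 10 were called lower (47.6%, median log2 change -0.86), 13 were lower by DESeq2, and no member had a peak at a transcript start. Pkm, pyruvate kinase, gave 904 and 915 CPM in DMSO and 412 and 419 CPM at 24 h (log2 change -1.13 ± 0.13, adjusted p = 0.00214, edgeR), with some reads shared with Gm49759. Pgk1, phosphoglycerate kinase, gave 116 and 117 CPM in DMSO and 50.6 and 44.9 CPM at 24 h (log2 change -1.29 ± 0.17, adjusted p = 0.00354). In both the 24 h libraries also lay below both 2 h libraries. The other called genes were Aldoa, Eno1, Gapdh, Gpi1, Ldha, Pfkl, Pgam1 and the glucose transporter gene Slc2a1, with log2 changes between -1.53 for Pfkl and -0.62 for Gpi1. The median of the list was -0.28 at 2 h and -0.45 at 6 h against the same DMSO libraries. The summed level of the list was 4956 and 4189 CPM in DMSO and 3141 and 2840 CPM at 24 h.

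Of the sterol genes a single member was called against DMSO. Of 22 tested genes of cholesterol synthesis, Fdps, farnesyl diphosphate synthase, was called lower at 24 h (4.55%, near the 4.48% of all genes), and the median log2 change was 0.43 at 2 h, 0.07 at 6 h and -0.34 at 24 h (-0.21 without 24 h replicate 1). Fdps gave 70.3 and 58.5 CPM in DMSO, 90.2 and 103 CPM at 2 h and 41.9 and 38.7 CPM at 24 h (log2 change at 24 h -0.68 ± 0.14, adjusted p = 0.0247, edgeR), with reads shared with Gm43738 and Gm22935. Its call against DMSO was lost without DMSO replicate 1 or either 24 h library (adjusted p up to 0.118).

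Of 82 tested cytosolic ribosomal protein genes 21 were called lower (25.6%, median log2 change -0.41), and 79 of the 82 had a negative change. At an unadjusted p under 0.05, 57 were lower, and DESeq2 called 28 lower, against 2134 and 818 of all 17977 genes. A ZFP143 peak stood at 32 of the 82 and at 13 of the 21. Rplp2, of the ribosomal stalk, gave 266 and 273 CPM in DMSO and 109.9 and 131 CPM at 24 h (log2 change -1.16 ± 0.14, adjusted p = 0.00270, edgeR), with reads shared with Snora52 in its intron. Rps29 gave 72.2 and 80.1 CPM in DMSO and 37.5 and 42.97 CPM at 24 h (log2 change -0.92 ± 0.15, adjusted p = 0.0118), and its call was lost without 24 h replicate 1 or DMSO replicate 2 (adjusted p up to 0.0782). Of 24 genes of ribosome assembly Nop56 (-0.68 ± 0.14) and Nop16 (-0.76 ± 0.18) were called lower, or 8.33% against 4.48% of all genes. Both calls were lost without at least 1 library (adjusted p up to 0.183 for Nop16 without 24 h replicate 1), and Nop56 shares reads with small nucleolar RNAs.

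ZFP143 is also known from genes of small RNAs. Of 19 tested genes for SNAPc, the factor that starts transcription of snRNAs, and for RNase P and RNase MRP, Rpp30, Pop1 and Rpp40 were called lower (15.8%, median log2 change -0.22, or -0.096 without DMSO replicate 1). Pop1 gave 90.02 and 107 CPM in DMSO and 51.3 and 57.97 CPM at 24 h (log2 change -0.85 ± 0.13, adjusted p = 0.00823, edgeR), a call lost without 24 h replicate 1 (adjusted p = 0.0665), and had no peak. Of 51 snRNA genes that passed the count rule, of 1383 annotated, 4 were called higher (7.84%, against 2.16% of all genes). Among them were Rnu1a1 (1.21 ± 0.23) and Rnu2-10 (1.118 ± 0.221), and both of these calls were lost without at least 1 library. Copies of snRNA genes are nearly identical and reads of low mapping quality had been removed, so these values are uncertain. Of 8 other small RNA genes read by RNA polymerase III the Y RNAs were called lower. Rny1 gave 8.56 and 12.9 CPM in DMSO and 2.06 and 1.2 CPM at 24 h (log2 change -2.74 ± 0.47, adjusted p = 0.0123), and Rny3 gave 7.32 and 14.5 CPM and 1.96 and 1.35 CPM (log2 change -2.74 ± 0.48, adjusted p = 0.0140). Both calls were lost without 24 h replicate 2 or DMSO replicate 2 (adjusted p up to 0.0830).

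Of 367 tested genes with a Zfp symbol 51 were called lower and 9 higher (13.9% and 2.45%). Of the 123 with a ZFP143 peak 47 were called lower, with a median log2 change of -0.65, and of the 244 without a peak 4 were, with a median of 0.07. Over all tested genes 23.6% of those with a peak and 1.65% of those without were called lower. Zfp850 gave 67.03 and 64.2 CPM in DMSO and 14.02 and 9.899 CPM at 24 h (log2 change -2.46 ± 0.19, adjusted p = 0.000509, edgeR). Zfp385b had the lowest p of the increases in this family after Zfp143, with 9.28 and 8.24 CPM in DMSO and 22.3 and 19.6 CPM at 24 h (log2 change 1.26 ± 0.17, adjusted p = 0.00436). On chromosome 7, 27 of 90 tested Zfp genes were called lower, against 24 of 277 elsewhere. Chromosome 7 also had the greatest share of called lower genes of any autosome, 121 of 1404 or 8.62%, and 94 of its 1314 other genes were called lower.

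Part of the integrated stress response rose. This pathway reacts to mitochondrial and amino acid stress through the transcription factor ATF4. Of 40 tested genes 7 were called higher (17.5%, against 2.16% of all genes), with a median log2 change of 0.47. A positive change was found in 36, and in 9072 of all 17977 genes. At an unadjusted p under 0.05, 19 were higher, against 1883 of all genes. DESeq2 called 15 higher, against 444 of all genes. Slc7a11 and Atf5 were given above. Cebpb, a transcription factor gene of this response, gave 0.619 and 0.680 CPM in DMSO and 4.22 and 4.42 CPM at 24 h (log2 change 2.71 ± 0.35, adjusted p = 0.00353, edgeR). Its 6 and 9 reads in DMSO mean that it passed the count rule through the 24 h libraries alone. The others were Cebpg, the partner of ATF4 (0.78 ± 0.14), Wars, tryptophanyl-tRNA synthetase (0.64 ± 0.12), Cth, which makes cysteine (1.124 ± 0.265), and the lipoprotein receptor gene Vldlr (0.96 ± 0.21). The medians of the list were 0.36 at 2 h and 0.27 at 6 h against the same DMSO libraries. Cth and Slc7a11 differed between the replicates, at 147 and 88.6 CPM in DMSO and 306 and 207 CPM at 24 h for Cth. Their groups did not overlap, which holds for all called genes and is no finding.

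Few or no genes of other responses were called in the fit without the replicate block, and list counts with the block are not given here. Of 27 tested p53 target genes none was called by edgeR or by DESeq2. At an unadjusted p under 0.05, 1 was lower and 3 higher, against 2134 and 1883 of all 17977 genes. Gtse1, the member with the highest mean count, gave 248 and 268 CPM in DMSO and 218 and 245 CPM at 24 h (log2 change -0.16 ± 0.12). Of 17 immediate early genes none was called by edgeR, and DESeq2 called 1 higher. At an unadjusted p under 0.05, 2 were lower and 3 higher, against 2134 and 1883 of all 17977 genes. The most counted was Klf6, with 93.1 and 73.9 CPM in DMSO and 95.8 and 86.3 CPM at 24 h (log2 change 0.13 ± 0.18). Of 15 interferon and inflammatory genes Ifit2 was called lower (6.67%, near the 4.48% of all genes). It gave 2.37 and 2.49 CPM in DMSO and 0.785 and 0.450 CPM at 24 h (log2 change -1.999 ± 0.454, adjusted p = 0.0375, edgeR). The call of Ifit2 was lost without any 1 of the 4 libraries (adjusted p up to 0.174) and with DESeq2 (0.149). With 8 and 6 reads at 24 h, Ifit2 passed the count rule through the DMSO libraries alone.

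Genes of stem cell identity were called in single cases in TT-seq. Of 22 tested genes of naive pluripotency 1 was called lower and 1 higher (4.55% each, against 4.48% and 2.16% of all genes), with a median log2 change of -0.04 (0.016 with library size alone and 0.088 without DMSO replicate 1). Klf5 gave 235 and 226 CPM in DMSO and 446 and 392 CPM at 24 h (log2 change 0.86 ± 0.13, adjusted p = 0.00797, edgeR). Prdm14, a repressor that guards the naive state, gave 47.7 and 45.9 CPM in DMSO and 27.9 and 29.8 CPM at 24 h (log2 change -0.70 ± 0.13, adjusted p = 0.0157), a call lost without any 1 library (adjusted p up to 0.0926). Pou5f1, the gene of OCT4, gave 82.3 and 84.8 CPM in DMSO and 45.9 and 62.5 CPM at 24 h and missed the threshold (log2 change -0.62 ± 0.16, adjusted p = 0.0553). Of 17 formative and primed genes none was called by either tool, with 1 higher at an unadjusted p under 0.05, and the most counted, Etv5, changed by -0.22 ± 0.19. Of 13 primitive endoderm genes 12 had a positive change, 6 of them at an unadjusted p under 0.05, against 1883 higher of all 17977 genes. The median log2 change was 0.83, and 1 gene was called higher (7.69%, against 2.16% of all genes). This was Cubn, an endocytic receptor gene, from 0.722 and 0.529 CPM to 2.35 and 2.55 CPM (log2 change 1.98 ± 0.37, adjusted p = 0.0188, edgeR). The call was lost without any 1 library and with DESeq2 (0.131). With 7 and 7 reads in DMSO, Cubn passed the count rule through the 24 h libraries alone. Summed over the list, primitive endoderm genes gave 837 and 833 CPM in DMSO and 1064 and 970 CPM at 24 h. The sum was already 1085 and 976 CPM at 2 h, and 1064 and 993 CPM at 6 h. No trophoblast, mesoderm, neural or fibroblast gene of the 21 tested was called by edgeR or DESeq2. At an unadjusted p under 0.05, 2 were higher, against 1883 of all 17977 genes. The most counted members changed by -0.30 ± 0.19 (Tfap2c), 0.54 ± 0.28 (Kdr), 0.11 ± 0.26 (Stmn2) and 0.15 ± 0.13 (Fn1).

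The greatest gains of CPM among called genes, a ranking that also follows level and gene length, lay in the imprinted cluster of chromosome 12. Its noncoding RNAs are made from the maternal copy. Meg3 gave 398 and 334 CPM in DMSO and 797 and 633 CPM at 24 h (log2 change 0.97 ± 0.17, adjusted p = 0.0148, edgeR). Rian gave 513 and 654 CPM in DMSO and 1334 and 1059 CPM at 24 h (log2 change 1.04 ± 0.16, adjusted p = 0.00855). B830012L14Rik, which follows Rian on the same strand (chromosome 12, 109695586 to 109702587), gave 409 and 453 CPM in DMSO and 896 and 717 CPM at 24 h (log2 change 0.90 ± 0.14, adjusted p = 0.00789). Mirg, the most distal, gave 497 and 432 CPM in DMSO and 766 and 699.9 CPM at 24 h (log2 change 0.66 ± 0.13, adjusted p = 0.0220). All 4 were higher in both 24 h libraries than in both DMSO libraries, as all called higher genes were. With Hspa9 they made up the 5 greatest gains of CPM among called genes. At 2 h Rian stood at 871 and 856 CPM and Meg3 at 631 and 532 CPM. The calls of Rian, Meg3 and Mirg were lost without 24 h replicate 1 (adjusted p up to 0.102), those of Meg3 and Mirg also without DMSO replicate 2, and that of Mirg also without 24 h replicate 2. Meg3, Rian and Mirg share reads with the small RNA genes inside them. Of other genes of the cluster, Rtl1 (log2 change 2.03 ± 0.62, adjusted p = 0.0963, edgeR) and Dio3 (-1.23 ± 0.75, adjusted p = 0.379) were tested and not called.

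The libraries at 24 h and 2 h were also compared directly. In this test 20 genes were lower and 11 higher at 24 h than at 2 h (0.111% and 0.0612% of those tested). With the replicate number as a block these counts were 439 and 576, so the small numbers belong to the fit without it. Without either 24 h library or either 2 h library in turn, edgeR called none, with the smallest adjusted p between 0.0943 and 0.285 and between 1806 and 2729 genes at an unadjusted p under 0.05. Dpysl5, a neuronal cytoskeleton gene, gave 57.7 and 47.5 CPM at 2 h and 14.8 and 16.9 CPM at 24 h, a difference of -1.72 on the log2 scale (adjusted p = 0.0228, edgeR). Ifrd2 gave 6.21 and 5.77 CPM at 2 h and 1.77 and 1.95 CPM at 24 h (-1.68, adjusted p = 0.0351), and Uqcr10 gave 10.7 and 12.01 and 4.12 and 3.3 CPM (-1.62, adjusted p = 0.0351). Both had started from 35.8 and 38.2 and 41.6 and 37.9 CPM in DMSO. Acly, ATP citrate lyase of lipid synthesis, stood out by its course. It gave 405 and 424 CPM in DMSO, 927 and 1058 CPM at 2 h, 688 and 738 CPM at 6 h and 354 and 413 CPM at 24 h, so that 24 h was not called against DMSO (log2 change -0.11 ± 0.13) but was against 2 h (-1.37, adjusted p = 0.0228). Fdps differed in the same direction (-1.26, adjusted p = 0.0228), as did Myh7b, a myosin gene (-1.64, adjusted p = 0.0428).

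Higher at 24 h than at 2 h were Trim66 (2.57, adjusted p = 0.0228, edgeR), Dock10 (2.50, adjusted p = 0.0474) and Meis1 (1.69, adjusted p = 0.0351). Another 6 genes higher at 24 h, with differences between 2.05 for Soat2 and 3.57 for Adamts19, had a mean count under 100. The named ones were completed by Hormad1 and Fkbp6, genes of meiotic chromosome pairing. Hormad1 gave 13.4 and 15.3 CPM in DMSO, 10.6 and 10.99 CPM at 2 h and 25.99 and 27.8 CPM at 24 h (1.31, adjusted p = 0.0351). Fkbp6 gave 61.7 and 58.3 CPM in DMSO, 69.9 and 74.5 CPM at 2 h and 139 and 162 CPM at 24 h (1.06, adjusted p = 0.0474). At 2 h Hormad1 lay below both DMSO libraries and Fkbp6 above both. At 24 h each lay above the 2 h libraries, a condition of being named, and above DMSO, as all called higher genes did. The call of Hormad1 against DMSO was lost without DMSO replicate 1 or either 24 h library (adjusted p up to 0.0821).

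Polyadenylated RNA in other libraries of these cells changed in the same direction for most called genes. The RNA-seq libraries of the depletion time course (2 DMSO and 2 at 24 h) share no library with TT-seq, and 12936 genes were tested in both. RNA-seq calls needed a fold over 1.5 at an adjusted p under 0.01 (edgeR). Of 643 genes called lower in TT-seq and tested in RNA-seq 334, or 51.9%, were called lower in RNA-seq too, against 3.63% of all genes tested in both. For called higher genes it was 94 of 304, or 30.9%, against 2.35%. By direction alone 625 of the 643 were negative in RNA-seq and 297 of the 304 positive. Across the 12936 genes the log2 changes had a Pearson r of 0.753 and a Spearman rho of 0.610. Genes are not independent replicates, and this is a description. With the RNA-seq of the differentiation experiment before retinoic acid, also 24 h of dTAG-V1 against DMSO, the shares were 57.3% and 39.2%. The RNA-seq count rule of the time course left out Zfp111, Usp40, Enox2, Rbm41, Samd12 and Mrps25, all among the 12 greatest decreases. In the differentiation libraries each of them was called lower, with log2 changes between -6.76 for Usp40 and -4.62 for Samd12.

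**Figure D5:**
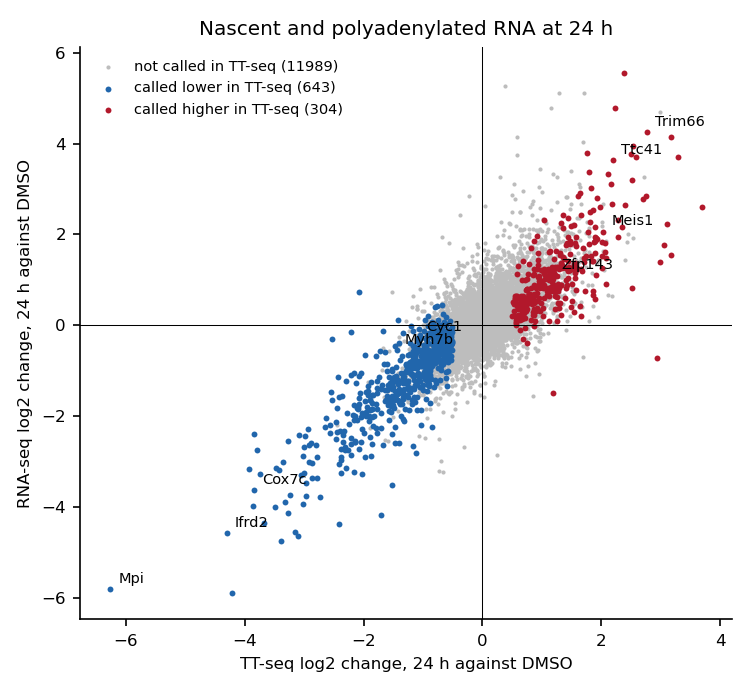
Log2 change at 24 h against DMSO in TT-seq (x axis) and in RNA-seq of the depletion time course (y axis) for 12936 genes tested in both, with genes called lower in TT-seq in blue (643) and called higher in red (304). Both axes are log2 scales, 625 of the 643 blue points lie below 0 and 297 of the 304 red points lie above 0 on the y axis.

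Values of both assays stand side by side for a few genes. Ifrd2 changed by -4.30 in TT-seq and -4.57 in RNA-seq, and Meis1 by 2.04 and 2.06. Trim66 changed by 2.77 and 4.25. Cyc1 was called lower in TT-seq (-1.09) and changed by -0.27 in RNA-seq without a call (adjusted p = 1.0, edgeR). Myh7b changed by -1.44 and -0.55, Fkbp6 by 1.33 and 0.21, and Zfp385b by 1.26 and 0.09, none of them called in these RNA-seq libraries. In the libraries of the differentiation experiment Myh7b was called lower (-1.03, adjusted p = 0.000595, edgeR). The difference between assays was not tested. By list, the median RNA-seq change was -0.75 for glycolysis, -0.62 for the mtDNA genes, -0.24 for cytosolic ribosomal proteins and 0.54 for the stress response. In glycolysis 10 of 21 genes were called lower, not the same 10 as in TT-seq. Eno1, Gapdh, Gpi1 and Pgam1 were not called in RNA-seq, with log2 changes of -0.25, -0.23, -0.54 and -0.75. Called lower were 2 of 9 mtDNA genes, and called higher 10 of 40 genes of the stress response. Of the 82 cytosolic ribosomal protein genes 0 were called by edgeR against the fold of 1.5, where 3 were lower at an unadjusted p under 0.05. By the edgeR test without that fold 69 were lower and 1 higher at an unadjusted p under 0.05. At an adjusted p under 0.05 and a log2 change beyond 0.5, this test called 6 lower. For mitochondrial ribosomal proteins the median RNA-seq change was -0.00308, with 5 of 76 called lower and Mrps25 not tested. For naive pluripotency genes it was -0.41, with 5 of 22 called lower, and for primitive endoderm genes 0.64, with 3 of 11 called higher. Polyadenylated RNA of mtDNA and of small RNAs is captured in part only by such a library.

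Called genes also differed in kind from the rest. Annotated gene length had a median of 14.4 kb in called lower genes, 69.9 kb in called higher genes and 19.7 kb over all tested genes. Protein-coding genes made up 84.6% of called lower, 86.9% of called higher and 76.6% of all tested genes, and long noncoding RNAs 6.203%, 8.76% and 11.9%. The median level in DMSO was 41.6 CPM in called lower, 6.49 CPM in called higher and 15.6 CPM in all tested genes, values that also follow gene length and the power to call a change. Of the 388 called higher genes 5, or 1.29%, overlapped a called lower gene on the opposite strand, close to the 1.33% of all tested genes.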

How the data were processed

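TT-seq reads had been mapped by the authors to the mouse genome (mm10) with STAR, filtered on mapping quality, freed of duplicates, split by strand and counted per GENCODE gene, introns included, with HTSeq. The deposited values are raw counts per gene. A read in 2 genes on the same strand was counted for both. RNA-seq counts per gene were deposited from STAR. ZFP143 peaks were called by the authors with MACS2 from HA ChIP-seq over input, and the deposited fold enrichment of each peak was used. Versions of these tools are not repeated here.

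Genes with over 10 counts in at least 2 of the 4 libraries were tested with edgeR 4.0.16 (R 4.3.3), with TMM scaling and a quasi-likelihood fit over 8 libraries in 4 groups (DMSO, 2, 6 and 24 h), all in 1 estimate of the spread. A gene was called when its log2 change exceeded 0.5 in size and its adjusted p was below 0.05. RNA-seq genes with over 10 counts in at least 4 libraries were tested with glmTreat of edgeR against a fold of 1.5 at an adjusted p under 0.01. DESeq2 1.42.0 was an alternative, as were other scalings, filters, a replicate block and leaving out each library. Same-numbered libraries deviated together, with r between 0.189 and 0.637 over 6 pairs of groups. The highest was that of DMSO with 24 h, while the labels name no shared batch. The main fit does not use this pairing, and counts with the replicate block are given beside it. The script was tested on simulated data. There was no spike-in, so changes are relative to the total.

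Named genes were Zfp143, the study's examples, the 12 greatest decreases and increases among called genes with a gene symbol of their own, a mean count of at least 100 and groups that did not overlap, the 5 greatest losses and gains of CPM among called genes, up to 2 called genes per list and direction by lowest p (with no call, the member with the highest mean count) and, under the same conditions, the greatest differences between 24 h and 2 h, at most 6 in each direction (5 higher genes met them). Members and lists were chosen with earlier results of these data known. Others are said to be picked after their values were seen. The 24 h, 2 h and 6 h contrasts share the DMSO libraries, and their values are set side by side only.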

Additional observations from a re-analysis of the deposited data

Results flagged for a closer look

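For 11 named genes the change at 24 h differed from that at 2 h in a direct test of the libraries at both times (edgeR quasi-likelihood test with Benjamini-Hochberg adjustment over all genes tested). The differences are on the log2 scale, as 24 h minus 2 h. Lower at 24 h were Dpysl5 (-1.72, adjusted p = 0.0228), Ifrd2 (-1.68, adjusted p = 0.0351), Myh7b (-1.64, adjusted p = 0.0428), Uqcr10 (-1.62, adjusted p = 0.0351), Acly (-1.37, adjusted p = 0.0228) and Fdps (-1.26, adjusted p = 0.0228). Higher at 24 h were Trim66 (2.57, adjusted p = 0.0228), Dock10 (2.50, adjusted p = 0.0474), Meis1 (1.69, adjusted p = 0.0351), Hormad1 (1.31, adjusted p = 0.0351) and Fkbp6 (1.06, adjusted p = 0.0474). Without either library of either time edgeR called none of them.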

How the results depend on the processing

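The counts of called genes at 24 h depended on the fit. With only the 4 libraries compared, 294 genes were lower and 49 higher, and 31 of the named calls were lost. A log2 change above 1 left 455 lower, and no count filter gave 1025 higher. Leaving out 1 library gave 353 to 522 lower and 112 to 195 higher. DESeq2, both other scalings and a stricter filter stayed within 1.5 times. Between 24 h and 2 h, 10 were lower with library size alone, 7 higher with the size factors of DESeq2, and 0 to 0 in either direction without 1 library. With the replicate block 1279 were lower and 1049 higher, 439 and 576 between 24 h and 2 h, Tufm was called (adjusted p = 0.0316, edgeR) and 58.2% of lower genes were bound, against 73.7% with library size alone. The RNA-seq shares were 57.3% and 39.2% with the differentiation libraries, 71.1% and 70.1% with a looser RNA-seq test, and 37.5% for higher genes with library size alone. Of the uncalled genes 4 changed sign without 1 library. Acly ran from -0.22 to 0.0055 (above 0 without 24 h replicate 1), Klf6 from -0.012 to 0.30 (below 0 without DMSO replicate 2), Etv5 from -0.51 to 0.039 (above 0 without 24 h replicate 1) and Stmn2 from -0.35 (without 24 h replicate 2; -0.14 without DMSO replicate 1) to 0.46. Library size alone moved the median of all genes to 0.06 and turned the sign of 5 of 33 list medians. Leaving out 1 library turned 3 to 8 of them and moved 5 to 13 by more than the spread between replicates, the most in both cases without DMSO replicate 2, where a median shifted by up to 0.80. Without it the medians were -0.048 for complex I, -0.10 for SNAPc and RNase P or MRP, -0.23 for sterol synthesis, -0.032 for mitochondrial chaperones and proteases, 0.15 for formative and primed genes and 0.99 for mesoderm genes. That of naive pluripotency was 0.088 without DMSO replicate 1. The cause of these changes was not tested, beyond the smaller number of samples or genes in some fits. With 2 libraries per group, small changes at low counts were not detectable.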
